A study of Mus musculus with 6 samples.

Results

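The secretory airway genes Scgb1a1, Scgb3a1, Scgb3a2, Cyp2f2, Bpifa1 and Muc5b were followed in mouse lung 3 days after C1q had been placed in the trachea. They were chosen by symbol, as known products of club cells and other secretory cells of the airway lining, and all 6 were found among the 26890 genes listed and among the 13473 tested. C1q, the recognition molecule of the classical complement pathway, was given at 20 µg per mouse to wild-type C57BL/6 animals (3 libraries), and the controls were wild-type C57BL/6 animals labelled as saline (3 libraries); the treatment text describes the C1q dose only. Lungs were taken at day 3, digested with Liberase and DNase and spun on a Percoll step gradient, and poly(A) RNA of the recovered cells was sequenced from the 5′ end, so that airway cells entered the data only as far as they survived digestion and banded with the collected layer. The labels do not say that each library came from a separate animal. The p-values set the difference between groups against the spread between these libraries, part of which may thus be technical.

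Club cells line the bronchioles of the mouse lung. They secrete secretoglobins, which are small disulphide-linked proteins, detoxify inhaled compounds with cytochrome P450 enzymes, and can divide and give rise to ciliated cells. The mucin Muc5b gives the airway mucus layer its gel and is needed for its clearance in mice, and Bpifa1 is a surface-active antimicrobial protein of the upper and large airways. Production of secretoglobins and of mucins is known to respond to injury and to cytokines.

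Total counts were 2227619 to 3650793 in the C1q libraries and 2577429 to 2991562 in the saline libraries. The surfactant and other alveolar type 2 genes had summed levels of 37452 to 40088 CPM (counts scaled to a fixed library total after TMM, the trimmed mean normalization of edgeR) after C1q and 27220 to 50625 CPM after saline, so genes of the labelled tissue were present. Saline replicate 2 stood apart in its short transcripts, as given below. Each secretory gene is also described without this library where that moved the value. Over all tested genes saline replicate 3 lay farthest from the other libraries, at a median absolute log2 deviation of 0.29, against 0.24 for saline replicate 2. Two-sided edgeR quasi-likelihood tests over all 13473 genes called 4 genes at an adjusted p under 0.05 (0.0297% of those tested), all higher after C1q, and 0 lower; at an unadjusted p under 0.05, 568 were higher and 531 lower, and DESeq2 called 31 higher and 1 lower. None of the 6 secretory genes was called, and 1 of them, Scgb3a1, had an unadjusted p under 0.05, as 8.16% of all genes tested did (4.22% higher and 3.94% lower after C1q). For every one of the 6 the ranges of the groups overlapped, whereas all C1q libraries lay below all saline libraries for 5.96% of genes and above them for 8.12%. DESeq2 and limma-voom called none of the 6 either.

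**Figure D1:**
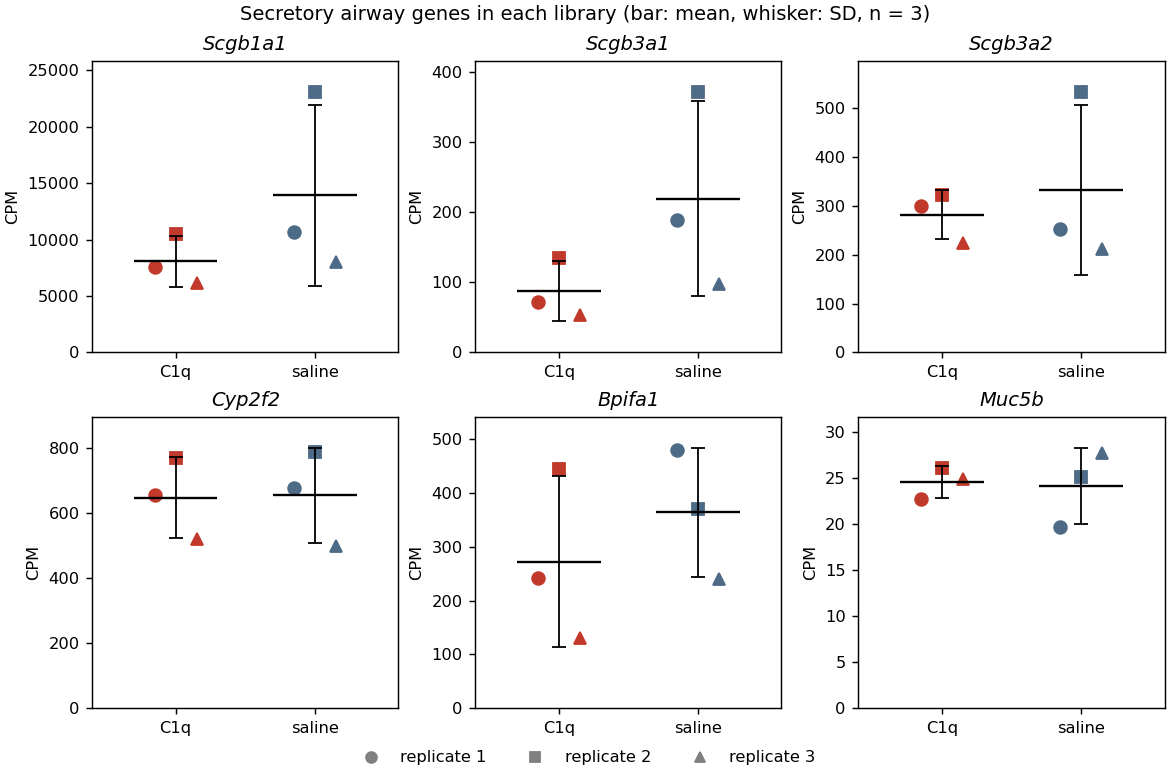
Level of each secretory gene in CPM (linear axis from 0) in the 3 C1q and 3 saline libraries; symbols mark the replicate, the bar is the mean and the whisker the SD. Saline replicate 2 stands highest for Scgb1a1, Scgb3a1, Scgb3a2 and, by a small margin, Cyp2f2, and the groups overlap in every panel.

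Scgb1a1 encodes the main secreted protein of club cells, also called club cell secretory protein. It stood at 7529, 10521 and 6138 CPM in C1q replicates 1 to 3, against 10705, 23043.5 and 7985 CPM in saline replicates 1 to 3. The highest C1q library lay above the lowest saline library, and saline replicate 2 was set apart from the other 5 libraries. The mean was 8063 ± 2240 CPM after C1q and 13911 ± 8025 CPM after saline (SD, n = 3 each). The log2 fold change was -0.79 ± 0.36 (SE), with a 95% interval from -1.58 to 0.00 (edgeR, adjusted p = 0.606). Fewer club cells and less transcript per cell cannot be told apart in such bulk libraries, here or for the genes that follow. Without saline replicate 2 the log2 fold change of Scgb1a1 was -0.21, and without saline replicate 3 it was -1.06. Counting error was small beside this spread: a library held at least 13598 counts of the gene, a counting error of at most 0.858%, while the coefficient of variation between libraries was 27.8% after C1q and 57.7% after saline. Scgb1a1 lies on chromosome 19 (GRCm38, 9083636 to 9087958, minus strand, protein-coding).

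Scgb3a1, a secretoglobin of larger airways, differed most between the groups. It was measured at 72.5, 135 and 53.7 CPM in the C1q libraries, against 188, 371 and 97.9 CPM in the saline libraries. C1q replicate 2 lay above saline replicate 3, and the other 2 C1q libraries lay below all saline libraries. The level was 87.1 ± 42.6 CPM after C1q and 219 ± 139 CPM after saline, a log2 fold change of -1.32 ± 0.44 with a 95% interval from -2.29 to -0.35. Its unadjusted edgeR p of 0.0121 came to an adjusted p of 0.536 over all genes. The log2 fold change was -0.71 without saline replicate 2 and -1.67 without saline replicate 3. When low-count genes were kept in the fit, edgeR called Scgb3a1 (adjusted p = 1.49e-08) and Scgb1a1 (adjusted p = 0.0346) lower among 26890 genes. Their log2 fold changes were -1.30 and -0.76, and that fit called 158 genes higher and 215 lower. Its SE was 0.19 for each of Scgb3a1, Scgb3a2, Cyp2f2 and Bpifa1, against 0.44, 0.30, 0.21 and 0.38 in the main fit. For Scgb1a1 the SE was 0.22 with low-count genes kept, against 0.36 in the main fit. For Muc5b it was higher with them kept, at 0.23 against 0.20. The cause of these changes in SE was not tested. Scgb3a1 lies on chromosome 11 (GRCm38, 49663610 to 49665118, plus strand).

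Scgb3a2, the third secretoglobin measured, is made by club cells of the smaller airways and encoded on chromosome 18. Its levels were 299, 322 and 225 CPM after C1q, against 253, 532 and 212 CPM after saline. Apart from saline replicate 2, the saline values lay within or below the C1q range. The log2 fold change was -0.24 ± 0.30, with a 95% interval from -0.91 to 0.44 (edgeR, adjusted p = 0.840), and it was 0.29, in the opposite direction, without saline replicate 2.

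Cyp2f2 encodes a cytochrome P450 that is abundant in mouse club cells and activates inhaled naphthalene. It stood at 656, 770.0 and 520.5 CPM after C1q, against 678, 789 and 500.1 CPM after saline, so that both groups covered nearly the same range. The log2 fold change was -0.015 ± 0.21, and its 95% interval, -0.47 to 0.44, ran from a fold of 0.722 to 1.36 (edgeR, adjusted p = 0.991). Its sign changed when single libraries were left out, between -0.18 and 0.15. The gene lies on chromosome 7 (GRCm38, 27119909 to 27133660, plus strand), the chromosome that also carries Cyp2s1 (from 25802475), Cyp2b10 (from 25897620) and Cyp2a5 (from 26835305), which had log2 fold changes of 0.06, -0.15 and -0.02. The labels and notes do not state how reads shared by such related genes were treated.

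Bpifa1 was the most uneven of the 6 among the C1q libraries. It was at 242, 444 and 131 CPM there, against 481, 370 and 241 CPM in the saline libraries. The highest C1q library was 3.39 times the lowest, and saline replicate 1, not replicate 2, was the highest saline library. The log2 fold change was -0.42 ± 0.38 (95% interval -1.25 to 0.41; edgeR, adjusted p = 0.758), and it was -0.96 without C1q replicate 2 and -0.083 without C1q replicate 3. Bpifa1 lies on chromosome 2 (GRCm38, 154142880 to 154149219), close to its relative Bpifb1 (from 154190818), whose log2 fold change was 0.23 ± 0.19.

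Muc5b, the gel-forming mucin, was counted 55 to 82 times per C1q library and 61 to 74 times per saline library. The scaled levels were 22.7, 26.1 and 24.8 CPM after C1q, against 19.6, 25.1 and 27.6 CPM after saline, and the C1q values lay inside the saline range. The log2 fold change was 0.026 ± 0.20 with a 95% interval from -0.41 to 0.46 (edgeR, adjusted p = 0.980), and it was -0.014 with library size as the only scaling. Counting error was 11.0% to 13.5% per library, of the order of the spread between libraries (7.05% after C1q and 17.0% after saline). Muc5b lies on chromosome 7 (GRCm38, 141839070 to 141873084, plus strand).

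The sequence before the start was taken from RefSeq (GRCm38.p6) and is shown for the 3 members that its table held. They include the genes with the largest and the smallest fold change, in size, of the group. Bases run 5′ to 3′ on the plus strand and end before the earlier of the RefSeq and GENCODE starts. Capitals mark matches to TATAAA, searched on the gene's strand only, and to the forkhead motif TNTTTAC, the NKX2-1 core CTTGAG and the C/EBP motif TTNNGCAA, searched on both strands.
Scgb3a1, chr11:49663345-49663594: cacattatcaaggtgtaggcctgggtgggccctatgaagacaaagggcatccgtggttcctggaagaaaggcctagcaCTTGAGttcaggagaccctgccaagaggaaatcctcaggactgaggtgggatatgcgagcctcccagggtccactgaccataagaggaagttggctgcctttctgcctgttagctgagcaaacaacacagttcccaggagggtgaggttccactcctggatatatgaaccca
Bpifa1, chr2:154142630-154142879: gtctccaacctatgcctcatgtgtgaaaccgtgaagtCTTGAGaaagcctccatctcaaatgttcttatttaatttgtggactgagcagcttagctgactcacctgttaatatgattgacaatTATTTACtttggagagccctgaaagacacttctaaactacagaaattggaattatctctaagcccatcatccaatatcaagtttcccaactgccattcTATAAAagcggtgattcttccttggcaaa
Cyp2f2, chr7:27119705-27119908: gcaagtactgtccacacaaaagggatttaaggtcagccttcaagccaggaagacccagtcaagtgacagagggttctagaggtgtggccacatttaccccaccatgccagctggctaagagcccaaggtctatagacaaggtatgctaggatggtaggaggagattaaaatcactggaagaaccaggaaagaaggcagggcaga
In the 250 bases before the RefSeq start, Scgb3a1 had 1 match to CTTGAG, 167 bases before the start. Bpifa1 had TATAAA 24 bases before the start, a forkhead match at 121 bases and CTTGAG at 208 bases. Cyp2f2 had no match to these 4 sets of letters, and no matches overlapped each other. Among the promoters of all 27025 genes in that table, 8.12% held TATAAA, 10.9% TNTTTAC, 13.6% CTTGAG and 9.55% TTNNGCAA.

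The ratio of a secretory gene to Cyp2f2 within the same library does not depend on the scaling between libraries. It can still carry library differences by transcript length, given below. The longest transcript is 476 bases for Scgb1a1, 598 for Scgb3a1 and 1866 for Cyp2f2. In saline replicate 2 the median centred log2 level was 0.63 for genes of at most 600 bases and 0.07 for genes over 1500 and up to 2500 bases. The ratio was chosen after the values had been seen, and is given without a test or a length correction. Scgb1a1 had 11.5, 13.7 and 11.8 counts per Cyp2f2 count in the C1q libraries, against 15.8, 29.2 and 16.0 in the saline libraries. All C1q values lay below all saline values. For Scgb3a1 the ratios were 0.111, 0.175 and 0.103 after C1q, against 0.278, 0.470 and 0.196 after saline, again without overlap. Over all genes, the ratio to Cyp2f2 was lower after C1q without overlap for 2.84% and higher for 2.88%. The ratios of Scgb3a2 (0.435 ± 0.0193 after C1q and 0.491 ± 0.161 after saline), Bpifa1 (0.399 ± 0.165 and 0.553 ± 0.135 in the same order) and Muc5b (0.0387 ± 0.00778 and 0.0387 ± 0.0145) overlapped. Against Cbr2, a carbonyl reductase of club cells, the Scgb1a1 ratios stayed apart, at 2.67 to 3.57 after C1q and 3.57 to 6.79 after saline, with 3.565 and 3.569 as the nearest values, while the Scgb3a1 ratios overlapped. Against Sec14l3, a lipid-binding protein gene of airway cells, both overlapped.

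**Figure D2:**
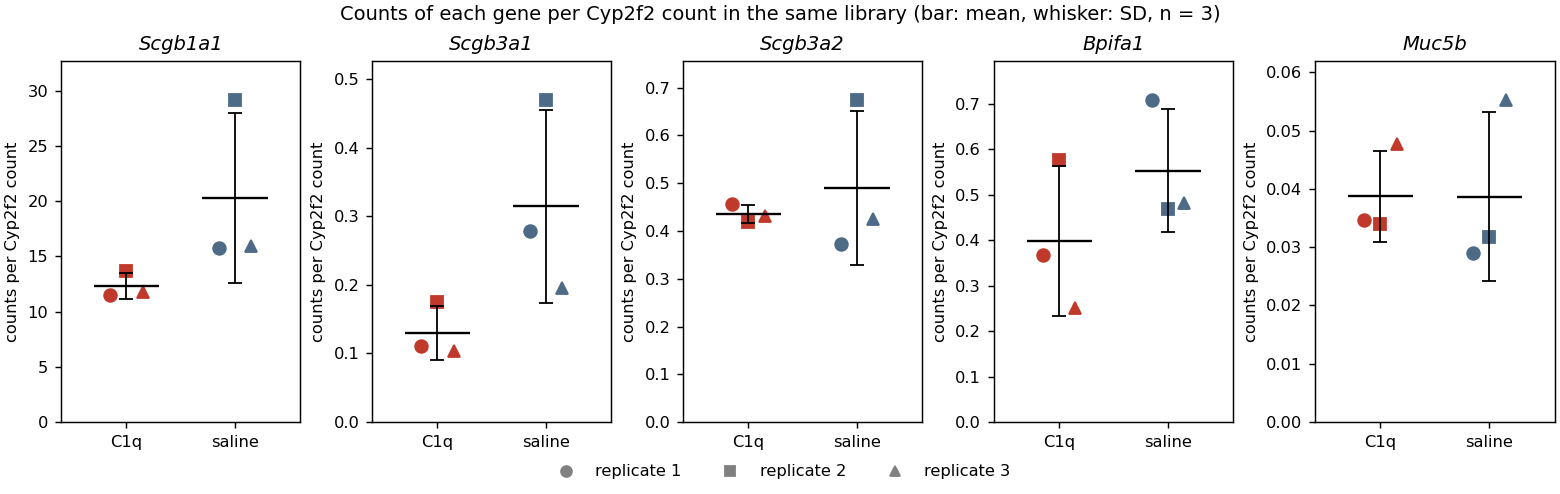
Counts of each secretory gene per Cyp2f2 count (linear axes from 0) in the C1q and saline libraries; symbols mark the replicate, bars the mean and whiskers the SD. For Scgb1a1 the C1q libraries lie between 11.5 and 13.7 and the saline libraries between 15.8 and 29.2. The ratios are not corrected for transcript length.

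The libraries also differed by transcript length, in the direction of the secretoglobins. Scgb1a1, Scgb3a1 and Scgb3a2 have short transcripts, the longest in GENCODE M21 being 476, 598 and 842 bases, against 1106 for Bpifa1, 1866 for Cyp2f2 and 14964 for Muc5b. For the 207 tested genes of at most 600 bases, the median log2 level around each gene's own mean was -0.09, -0.13 and -0.23 in C1q replicates 1 to 3, against 0.09, 0.63 and -0.35 in saline replicates 1 to 3. Saline replicate 2 was the highest library for 67.0% of the 415 genes of at most 800 bases, against 19.6% of all genes tested. The median log2 fold change of these 415 genes was -0.40, with 340 of them negative, 69 below Scgb1a1 and 7 below Scgb3a1, beside a median of -0.012 over all genes tested. Scgb1a1, centred in the same way, was at -0.40, 0.08 and -0.69 in C1q replicates 1 to 3, against 0.11, 1.21 and -0.31 in saline replicates 1 to 3. Saline replicates 2 and 1 were the highest libraries both for Scgb1a1 and for the genes of at most 600 bases, and the lowest was C1q replicate 3 for Scgb1a1 and saline replicate 3 for those genes.

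**Figure D3:**
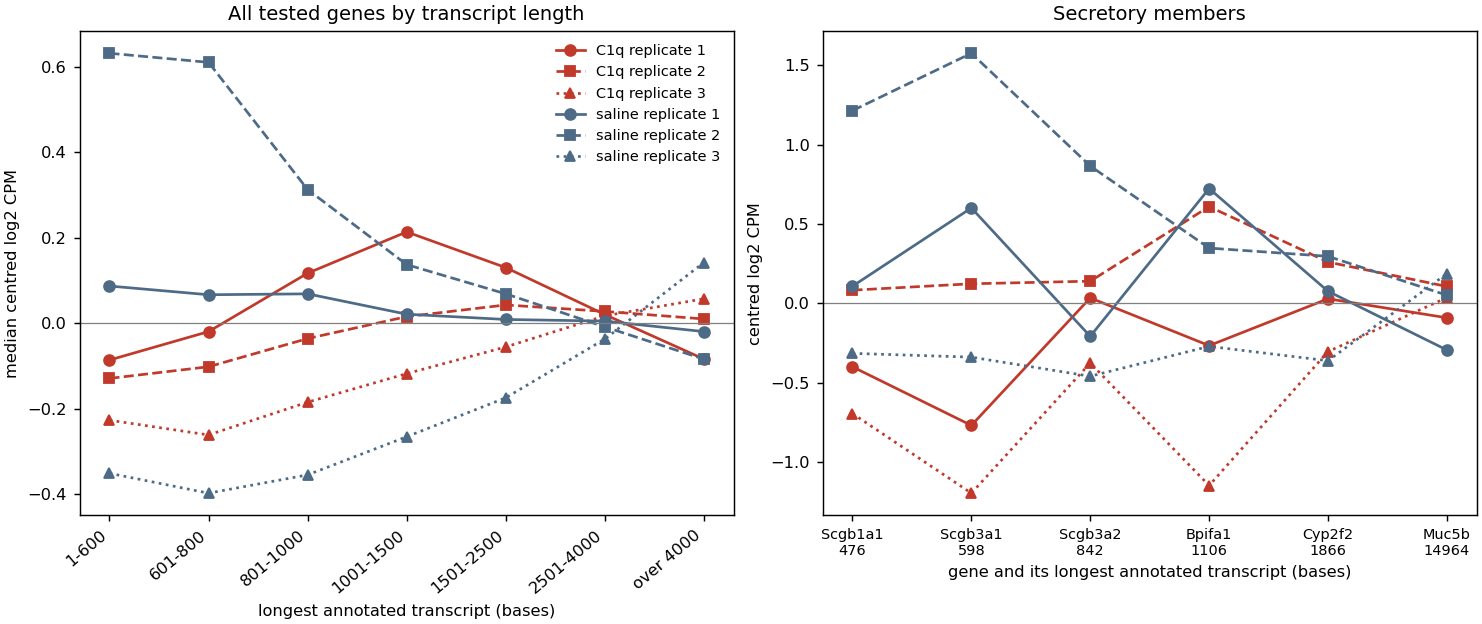
Left, median log2 CPM centred on each gene's mean, for tested genes grouped by their longest annotated transcript, with a line per library; right, the same centred value for each secretory gene, ordered by transcript length. Saline replicate 2 stands at 0.63 for genes of at most 600 bases and at 1.21 for Scgb1a1; the spread between libraries is widest for the short transcripts on the left and, on the right, for Scgb3a1.

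When levels were corrected for transcript length in groups of genes, the log2 fold change was -0.40 ± 0.19 for Scgb1a1 (edgeR, adjusted p = 0.493) and -0.91 ± 0.29 for Scgb3a1 (adjusted p = 0.306). Scaling the libraries on the 415 short genes alone gave -0.39 and -0.90, against a median over all genes that this scaling moved to 0.21. With that scaling Scgb3a2 stood at 0.13, Cyp2f2 at 0.26, Muc5b at 0.23 and Bpifa1 at -0.16. With the correction by length groups they stood at -0.13, -0.077, 0.052 and -0.48 in the same order. These corrections were chosen after the data were seen, and they would also take out any treatment effect shared by short transcripts. The part of transcript length in the remaining differences was not tested.

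**Figure D4:**
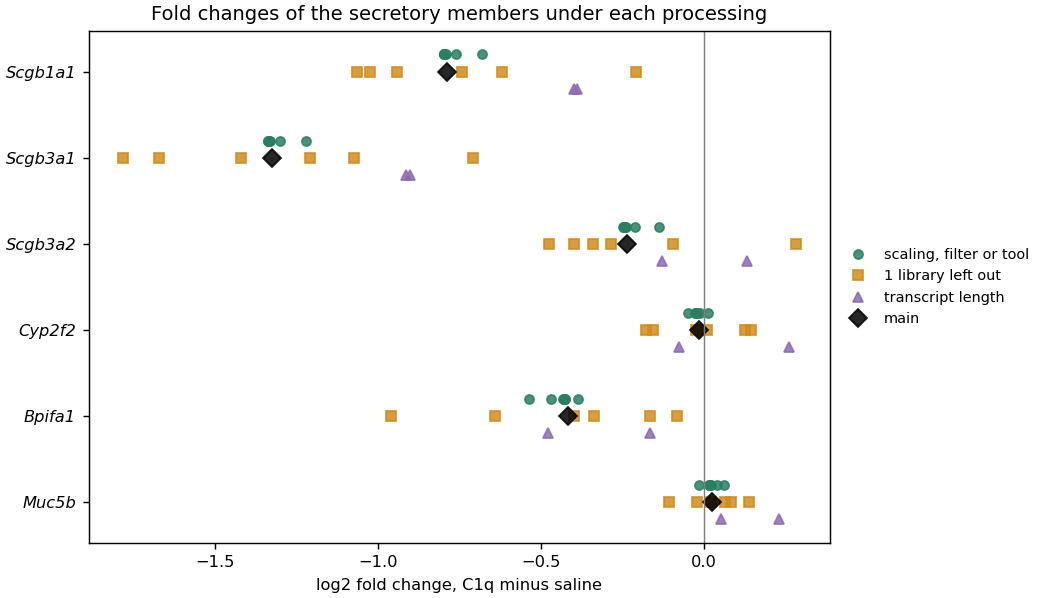
Log2 fold change, C1q minus saline, of each secretory gene as reported (black diamond), under other scalings, filters and tools (circles), with 1 library left out (squares) and with corrections for transcript length (triangles). Scgb1a1, Scgb3a1 and Bpifa1 stay below 0 under all of these, at -0.21, -0.71 and -0.083 nearest to 0. Scgb3a2, Cyp2f2 and Muc5b fall on both sides.

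Genes with the most similar profile were taken as the 3 nearest of 12486 by the root-mean-square distance of centred log2 CPM over the 6 libraries. Nearest to Scgb1a1 were the pseudogene Gng5-ps (distance 0.0826), which can share reads with its parent gene, Ndufa6 (0.0838) and Atp5j2 (0.108), the last 2 encoding small subunits of mitochondrial complexes. For Scgb3a1 they were Fmc1 (0.270), Ndufb1 (0.316) and the ribosomal protein gene Rps27 (0.325), and for Scgb3a2 Ndufc2 (0.0752), Il15 (0.0875) and Ss18l2 (0.0886). The longest annotated transcript was 205 bases for Gng5-ps, 1141 for Ndufa6 and 2101 for Atp5j2. It was 500 for Fmc1, 672 for Rps27, 683 for Ndufc2, 1908 for Il15 and 2354 for Ss18l2, with no length for Ndufb1. Whether the longest annotated transcript was the one expressed was not tested. Cyp2f2 was nearest to Yif1b, Hilpda and Lmcd1 (0.0444 to 0.0525) and Muc5b to Rnf145, Unc45a and Nme6 (0.0280 to 0.0519). Bpifa1 was nearest to Prxl2b, Upk3b and Art3 (0.219 to 0.243). The 6 secretory genes themselves were not candidates, so these distances do not show whether they followed one another. No gene of the other secretory or club cell lists was among the nearest profiles.

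Other club cell markers were close to level between the groups, though bulk libraries do not show which cells their transcripts came from. Of 14 listed, 13 were tested, 0 were called by edgeR, DESeq2 or limma-voom (1 had an unadjusted edgeR p under 0.05), 8 had a positive and 5 a negative log2 fold change, and the median was 0.012, beside -0.012 over all genes. The split was 5 positive and 8 negative with library size as the only scaling or with the length correction. Lypd2, a small GPI-anchored protein gene, had the smallest p, at 10.6 ± 1.76 CPM after C1q and 18.5 ± 6.81 CPM after saline (log2 fold change -0.78 ± 0.30; edgeR, adjusted p = 0.602). It too has a short transcript, of 513 bases, and stood at -0.47 after the length correction. Haptoglobin, Hp, which binds free haemoglobin, was at a log2 fold change of 0.30, the sodium channel subunit gene Scnn1b at -0.27 and Pigr, the carrier of secreted antibodies, at -0.24. Sec14l3 and Cbr2, named here for the ratios above, were at 0.03 ± 0.15 and -0.13 ± 0.22. Upk3a was not tested, with 0 to 3 counts per library.

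Enzymes that act on inhaled compounds were likewise spread around 0. Of 19 listed, 18 were tested and 0 called by these 3 tools (1 at an unadjusted edgeR p under 0.05), with 6 positive and 12 negative log2 fold changes and a median of -0.12. The split was 14 positive and 4 negative with scaling on short transcripts, 10 and 8 without C1q replicate 3, and 9 and 9 without saline replicate 2. The largest was that of Gsto1, a glutathione transferase gene, at 245, 193 and 133 CPM after C1q against 115, 137 and 102 CPM after saline. The highest saline library lay just above the lowest C1q library (log2 fold change 0.69 ± 0.22; edgeR, adjusted p = 0.529). Aldh1a7, an aldehyde dehydrogenase gene, was at 0.30 ± 0.16, at 54.8 to 63.8 CPM after C1q and 40.7 to 50.8 CPM after saline, without overlap. Fmo1, a flavin monooxygenase gene, was at -0.37 ± 0.18 and Cyp4b1, a lung cytochrome P450 gene, at -0.38 ± 0.22.

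**Figure D5:**
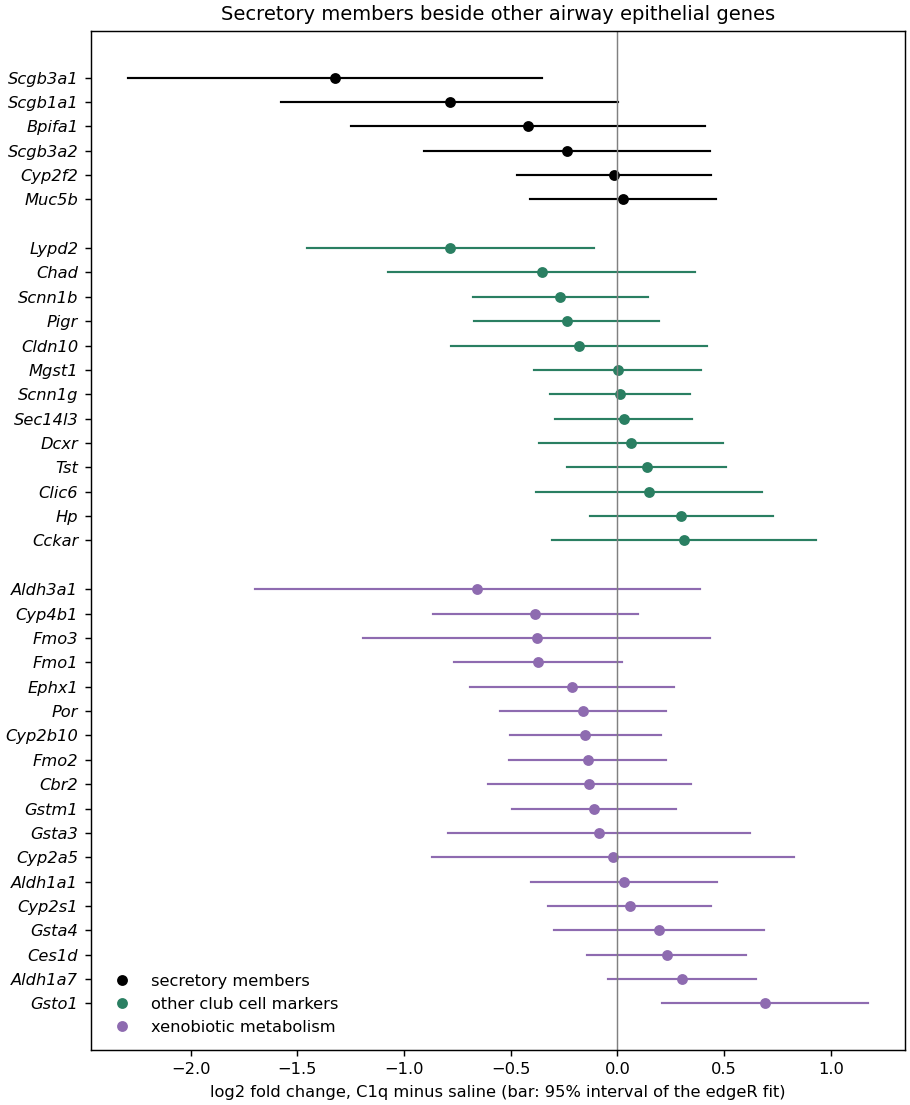
Log2 fold change, C1q minus saline, with its 95% interval from the edgeR fit, for the 6 secretory genes (black), 13 other club cell markers (green) and 18 genes of xenobiotic metabolism (purple). The intervals of Scgb3a1, Lypd2 and Gsto1 lie off 0 before adjustment, at estimates of -1.32, -0.78 and 0.69, and no gene shown passed the adjusted test.

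Goblet cell genes were scarce. Muc5ac, the inducible airway mucin, had 0 to 2 counts in every library, and Spdef and Foxa3, transcription factors of mucous cells, had at most 7 counts in any library. Of the 15 genes listed 6 were tested and 0 called by the 3 tools (2 at an unadjusted edgeR p under 0.05). Clca1, which goblet cells secrete, was at 3.04, 13.8 and 14.0 CPM after C1q, against 4.82, 0.810 and 2.24 CPM after saline. C1q replicate 1 lay below saline replicate 1, while the other C1q libraries lay above all saline libraries (log2 fold change 1.86 ± 0.65; edgeR, adjusted p = 0.563). Creb3l1, a transcription factor of the secretory pathway, was at 0.63 ± 0.26 and the membrane mucin gene Muc1 at 0.40 ± 0.18, and Tff2, a trefoil peptide gene of mucous secretions, at -0.67 ± 0.36.

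In the list of airway genes induced by interleukin-13, 6 of 10 were tested, all 6 with positive log2 fold changes (median 0.41) under each of the scalings tried, and 0 were called by the 3 tools (2 at an unadjusted edgeR p under 0.05). The 6 included the receptor genes Il13ra1 and Il4ra. Of the list genes not tested, Itln1, Il13ra2 and Ccl24 had at most 5 counts in any library, and Retnlb was absent from the deposited counts. Chil4, a chitinase-like protein gene, stood at 190, 183 and 176 CPM after C1q, against 120, 148 and 63.9 CPM after saline, without overlap (log2 fold change 0.72 ± 0.25; edgeR, adjusted p = 0.560). It is closely related in sequence to Chil3, and reads of the pair may not have been kept apart. The eosinophil chemokine gene Ccl11 was at 0.49 ± 0.22. Among genes of airway lining defence, 7 of 10 were tested and 0 called by the 3 tools (1 at an unadjusted edgeR p under 0.05), with a median of 0.23. Cfb, a complement factor gene, was at 0.62 ± 0.27 and lactoferrin, Ltf, at 0.64 ± 0.38.

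Regulators of the secretory fate had 18 of 19 members tested and 0 called by the 3 tools (2 at an unadjusted edgeR p under 0.05), with 9 positive and 9 negative log2 fold changes (12 and 6 with scaling on short transcripts). Foxa1, a forkhead factor of airway epithelium, was at 16.9, 14.1 and 14.0 CPM after C1q, against 18.7, 28.7 and 27.3 CPM after saline, without overlap (log2 fold change -0.71 ± 0.23; edgeR, adjusted p = 0.532). Foxp1, another forkhead factor of many lung cells, was at -0.47 ± 0.16, also without overlap. C1q lay below saline without overlap for 3 of the 18 regulators (Foxa1, Foxp1 and Hes1) and above it for 0, beside 5.96% and 8.12% of all genes tested. Elf5 and Cebpd were at 0.48 ± 0.23 and 0.28 ± 0.16. Nkx2-1, the lineage factor of lung epithelium, was at 81.3 ± 7.43 CPM after C1q and 74.2 CPM on average after saline (0.13 ± 0.15).

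Markers of other cells give the setting of these values. Of the 14 pan-epithelial genes tested, 14 had positive log2 fold changes, beside 6500 of all 13473 genes tested. The number was 13 with RLE, upper-quartile or library-size scaling, with the stricter filter, with DESeq2 or with the length correction. With 1 library left out it was 13 or 14. Their median was 0.27, and 0 were called by the 3 tools (3 at an unadjusted edgeR p under 0.05). Epcam was at 99.3 ± 6.90 CPM after C1q and 82.0 ± 14.5 CPM after saline. Spint1, a protease inhibitor gene, was at a log2 fold change of 0.68 ± 0.18 and the tight junction gene Cldn4 at 0.81 ± 0.30. Ciliated cell genes, 14 of 15 tested and 0 called by the 3 tools (2 at an unadjusted edgeR p under 0.05), had summed levels of 541 to 771 CPM after C1q and 673 to 858 CPM after saline. Their log2 fold changes were positive for 4 and negative for 10, with a median of -0.15, and with scaling on short transcripts positive for 9 and negative for 5. Dynlrb2 and Tmem212, both with short transcripts (527 and 716 bases), had the smallest p, at -0.72 ± 0.30 and -0.56 ± 0.24. Ccno, a regulator of multiciliated cell formation, had the largest value of the list, at 0.76 ± 0.39 and without overlap between the groups, and Foxj1, the main ciliated cell factor, was at 0.04 ± 0.16. The basal cell list had summed levels of 10.8 to 36.2 CPM after C1q and 5.26 to 7.84 CPM after saline; only Krt15 was tested, at 24.3, 10.9 and 6.32 CPM after C1q against 0.643, 0.810 and 3.74 CPM after saline (log2 fold change 3.03 ± 0.66; edgeR, adjusted p = 0.281), and DESeq2 called it (adjusted p = 0.00452), while the defining genes Krt5 and Trp63 had at most 9 counts in any library. Cartilage genes of the large airways came to at most 3.60 CPM in sum after C1q and 2.99 CPM after saline. Neuroendocrine genes (17.4 to 21.9 CPM in sum after C1q, 6.35 to 19.0 CPM after saline) and tuft cell genes (18.3 to 22.1 CPM after C1q, 9.64 to 20.9 CPM after saline) were low in both groups, with Calca at a log2 fold change of 1.04 ± 0.51, Uchl1 at -0.024 and Dclk1, which other cells also express, at 0.95 ± 0.28.

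For alveolar type 2 genes the median log2 fold change was 0.22, with Sftpd, a surfactant collectin gene, at 0.44 ± 0.18 and Lpcat1, a surfactant lipid enzyme gene, at 0.32 ± 0.16, and the alveolar type 1 list had a median of -0.10, with Hopx at -0.75 ± 0.27 (-0.39 without saline replicate 2) and Gprc5a at 0.30 ± 0.14. Medians were 0.23 for leukocyte genes (Laptm5 0.34, Lcp1 0.28), -0.25 for endothelial genes (negative for 8 of 8, and for 4 of 8 with scaling on short transcripts; Ramp2 -0.43, Kdr -0.33), 0.29 for fibroblast genes (Pi16 0.66, Dpt 0.48), -0.042 for smooth muscle genes (Cnn1 -0.35, Des -0.080) and -0.71 for erythroid genes (Hba-a1 -0.97, Hbb-bs -0.73). In these 7 lists 0 genes were called by the 3 tools, and 5 were at an unadjusted edgeR p under 0.05. The part of cell composition in the secretory gene values was not tested.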

How the data were processed

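The authors deposited whole-number counts per gene symbol and library, not normalized. Reads were handled with cutadapt 2.1.0 and Bowtie2 2.4.2 on GRCm38, per the submitters' processing notes. How reads were assigned to genes, with which annotation and strand rule, and whether molecular identifiers were used, is not stated. Libraries were grouped by their treatment label and numbered in order of deposition, so the numbers pair nothing. All 15 library pairs differed by more than counting noise (chi-square per degree of freedom 4.74 to 14.6).

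Genes were filtered with filterByExpr, scaled by TMM and tested two-sided with edgeR 4.0.16 (quasi-likelihood, treatment as the only term), with Benjamini-Hochberg adjustment across the 13473 genes that passed; the code was tested on simulated data. SE values come from the fold change and the F statistic. Levels of different genes were not ranked, because it is not known whether counts depend on transcript length. Counting errors cover counting alone. Lengths and positions are from GENCODE M21 (GRCm38), with lengths for 12761 tested genes. DESeq2 1.42.0 and limma 3.58.1 (voom), other scalings and filters, each library left out, and 2 length corrections were alternatives.

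The members and lists were chosen with earlier results of these data known. Genes named are the members, the 2 tested genes with the smallest p in each list (4 in the club cell, xenobiotic, mucin and regulator lists), the 3 nearest profiles at a mean of at least 5 CPM, and Epcam and Nkx2-1; other list genes were chosen after their values were seen.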

Additional observations from a re-analysis of the deposited data

How the results depend on the processing

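With no filter on low counts, 2 secretory genes were called, Scgb1a1 at a log2 fold change of -0.76 and Scgb3a1 at -1.30. This fit called 158 genes higher and 215 lower. Its SE for Scgb3a1 was 0.19, against 0.44 in the main fit, and the cause of this fall was not tested. That fit also called Gsto1, Clca1, Chil4, Krt15, Hopx, Pi16, Hba-a1 and Hbb-bs. DESeq2 called 31 genes higher and 1 lower, scaling on short transcripts called 16 higher and the length correction 9 higher, the last 2 being chosen after seeing the data. Leaving out 1 library at a time gave 0 to 9 genes called higher (0 without saline replicate 1, 9 without saline replicate 3) and 0 or 1 lower. Among the 6 secretory genes none was called in the other fits. Left out in this way, Scgb3a2 ranged from -0.47 to 0.29, Cyp2f2 from -0.18 to 0.15 and Muc5b from -0.11 to 0.14, while Scgb1a1 (-1.06 to -0.21), Scgb3a1 (-1.78 to -0.71) and Bpifa1 (-0.96 to -0.083) kept their sign. Signs also changed for Scgb3a2 (0.13) and Cyp2f2 (0.26) with scaling on short transcripts, for Cyp2f2 with no filter (0.014) and for Muc5b with library size only (-0.014). Of genes named from the lists, Uchl1 changed sign with no filter (0.0045), limma-voom (0.042) and scaling on short transcripts (0.29), and from -0.28 to 0.16 with 1 library left out, and Des with scaling on short transcripts (0.16). The log2 ratio of Scgb1a1 to Cyp2f2 counts, C1q over saline, was -0.66 and ranged from -0.81 to -0.37 with 1 library left out, and that of Scgb3a1 was -1.22, from -1.52 to -0.89. Of 18 list medians, each under 15 alternatives, 21 values moved by more than the spread between libraries, 12 of them under the length corrections. The nearest profile of each secretory gene left the nearest 3 in 2 to 4 of the alternatives. No paired analysis was possible because the groups share no replicate numbers in the labels. Depth limited Muc5b, with 55 to 82 counts per library, and the goblet and basal cell genes, since 3 counts came to 0.830 to 1.35 CPM.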
